A study of Mus musculus with 2 samples.

Results

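Imprinted genes are expressed mainly from the maternal or the paternal chromosome, and several imprinted loci also carry microRNA (miRNA) genes. The 5 described here lie outside the large Dlk1-Dio3 miRNA region: Mir335 in the Mest locus, Mir298 and Mir296 in the Gnas region, Mir483 in Igf2 and Mir675 in H19. They were chosen by their location in these loci, not by a measured value, though with earlier results of these data known. They make up 5 of 2202 annotated miRNA genes. In the hippocampus of young adult mice, Mir335 and Mir298 averaged 3426 and 2026 counts per 1000000 miRNA counts, Mir296 averaged 380.8 and Mir483 averaged 53.7. Mir675 had no count. Mir298 and Mir296, which lie side by side on one strand, differed between the libraries in opposite directions.

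The study sequenced small RNAs from a layer of hippocampus, which the labels do not name further, of female B6CASTF1/J mice aged 2 months. B6CASTF1/J animals are the F1 offspring of a cross between the B6 laboratory strain and the CAST strain, which derives from wild castaneus mice. The series holds 1 group of 2 libraries, labelled biological replicates 2 and 1, with separate tissue records but a shared donor record and no treatment. Whether these were separate animals is not stated, and a difference between the libraries may be technical. The p-values below cover read-counting error alone, and measure no spread between libraries or animals. Replicate 2 held 5979247 sense-strand counts on miRNA genes among 16280072 reads, and replicate 1 held 4517648 among 11666435. Levels are given as CPM, the counts per 1000000 sense counts on miRNA genes. Reads that map to several places, 48.4% of replicate 2 and 45.9% of replicate 1, carry no gene in the tables. The animals are hybrids, but the tables hold no counts by allele, so parental origin was not measured.

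The neuron-enriched list of 15 miRNA genes summed to 54043 CPM in replicate 2 and 49553 CPM in replicate 1. Each gene of the list had a count in at least 1 library. Mir124a-2 had only 0 counts in replicate 2 and 4 in replicate 1, and Mir124a-3 had 3 and 2. The sum of the list ran against most of its tested members, since replicate 2 was lower for 6 and higher for 3 of the 11 tested genes. Lists that mark other tissue were lower. The list of brain regions outside the hippocampus (the miR-200 and miR-183 genes) summed to 206.4 CPM in replicate 2 and 632.2 CPM in replicate 1. The list of other organs summed to 426.8 and 451.8 CPM, and 6 of its 9 genes had a count. Its heart and muscle genes Mir1a-1, Mir133a-1 and Mir133a-2 were at 0 in both libraries. The list's other heart and muscle genes, Mir1a-2, Mir206 and Mir208a, each had a count in at least 1 library. Mir206 had 29.4 CPM in replicate 2 and 79.0 CPM in replicate 1. Most of the sum came from Mir375, with 267.6 CPM in replicate 2 and 245.0 CPM in replicate 1. Reads that map to several places are not counted, so these zeros do not show absence. In bulk tissue, fewer cells of a type and less RNA per cell cannot be told apart.

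A miRNA is cut from a hairpin in a longer transcript, often that of a host gene, and either arm of the hairpin can be loaded into an Argonaute protein. Bases 2 to 8 of the mature strand, the seed, pair with target mRNAs and lead to their repression. In mice, Mest and Igf2 are expressed from the paternal chromosome in most tissues and H19 from the maternal one. Mir296 and Mir298 are known as paternally expressed members of the Gnas cluster.

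All 5 genes were found in the RefSeq sequence table of build GRCm38.p6, with 10 mature strands. They are shown because the counts below are sums over both arms of each hairpin, and the seed is what sets one miRNA apart from another. Capitals mark the seed.
miR-335-5p: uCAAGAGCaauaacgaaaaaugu
miR-335-3p: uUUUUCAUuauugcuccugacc
miR-298-5p: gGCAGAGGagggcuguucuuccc
miR-298-3p: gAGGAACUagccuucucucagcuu
miR-296-5p: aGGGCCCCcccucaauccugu
miR-296-3p: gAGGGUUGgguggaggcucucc
miR-483-5p: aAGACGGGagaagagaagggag
miR-483-3p: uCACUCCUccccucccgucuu
miR-675-5p: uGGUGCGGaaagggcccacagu
miR-675-3p: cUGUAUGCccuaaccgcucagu

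The 10 seeds all differ, and none occurs at bases 2 to 8 of another of the 1738 mature miRNAs in that table, so the 5 genes form no seed family. Between any pair of the 5 hairpins the longest identical stretch was 5 to 7 bases. None of the 5 hairpins shares 20 or more identical bases with another miRNA gene of GENCODE M21, whereas 1133 of the 2202 genes do. The mature strands were also absent from the other GENCODE M21 transcripts, apart from those of Mir675, which lie in H19 itself. Duplicated miRNAs lose reads that map to several places, and among these transcripts the 5 genes have no such copy. The rest of the genome was not searched.

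The hairpins are otherwise unlike each other in base composition. Mir335, with 98 bases, had the lowest GC content at 42.9%, against a median of 50.8% over all miRNA genes. Mir298 had 53.7%, Mir483 58.9%, Mir675 63.1% and Mir296 63.3%. The predicted folding energy per base was stronger in Mir335 than in 78.0% of all miRNA genes, and the other 4 hairpins ranked above Mir335. It was strongest in Mir675, at -56.0 kcal/mol for 84 bases, which was stronger per base than in 98.7% of the genes.

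The loci place the hairpins differently. Mir335 (chromosome 6, positions 30741299 to 30741396, plus strand, mm10) lies in an intron of Mest, which encodes a hydrolase-fold protein of mesoderm. Mir483 (chromosome 7, 142654924 to 142654996, minus strand) lies in an intron of the growth factor gene Igf2 and of the overlapping gene Gm49394. Mir675 (chromosome 7, 142577064 to 142577147, minus strand) lies in an exon of H19, a long non-coding RNA, 77.8 kb from Mir483. Mir298 (chromosome 2, 174267504 to 174267585) and Mir296 (174267047 to 174267125) lie on the minus strand outside any annotated host. Only 378 bases separate them. On the same strand, the annotated end of Nespas, the paternal antisense RNA of the Gnas region, lies 13.7 kb before Mir298.

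**Figure D1:**
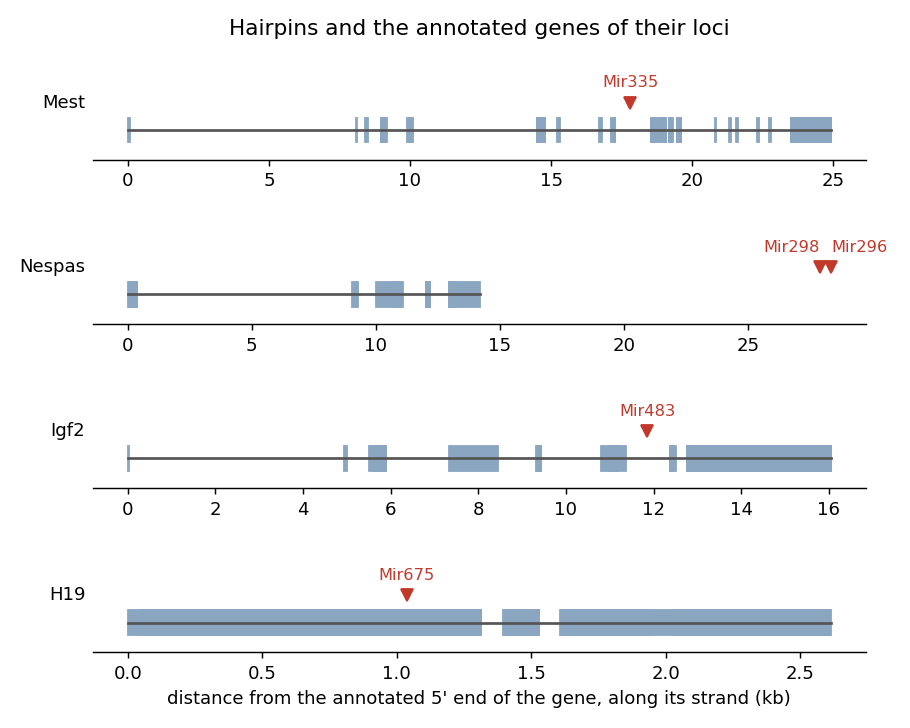
Position of each hairpin (red triangle) along the annotated gene of its locus, in kb from that gene's 5' end in its own direction; blue blocks are annotated exons and lines the gene. Mir335 and Mir483 sit in introns, Mir675 in the first H19 exon block, and Mir298 and Mir296 lie beyond the annotated end of Nespas.

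Mir335 was the most abundant of the 5. In human breast cancer cells miR-335 is known as a suppressor of metastasis. Replicate 2 gave 21045 counts and replicate 1 gave 15054. The levels were 3520 CPM (95% Wilson interval 3473 to 3567) in replicate 2 and 3332 CPM (3280 to 3386) in replicate 1. The mean was 3426 ± 133 CPM (SD, n = 2), rank 49 among all miRNA genes. The libraries were thus close together, with replicate 2 the higher one.

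Mir298 came next, and its libraries were far apart. In mouse cells miR-298 is known to repress Bace1, the secretase that starts amyloid-beta production. Its counts were 17840 in replicate 2 and 4824 in replicate 1. These are 2984 CPM (2940 to 3028) in replicate 2 and 1068 CPM (1038 to 1098) in replicate 1, with a mean of 2026 ± 1355 CPM (SD, n = 2). It ranked 57 in replicate 2 and 90 in replicate 1.

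Mir296, its neighbour, is known to act on Nanog in mouse embryonic stem cells and on endothelial cells in tumour vessels. It had nearly equal counts, 1972 in replicate 2 and 1951 in replicate 1, although replicate 2 was sequenced more deeply. The levels were 329.8 CPM (315.6 to 344.7) in replicate 2 and 431.9 CPM (413.1 to 451.5) in replicate 1, with a mean of 380.8 ± 72.2 CPM (SD, n = 2). Here replicate 2 was the lower library.

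Mir483 was counted at a low level. Its host Igf2 is known in the adult rodent brain from choroid plexus and meninges rather than from neurons. Replicate 2 gave 370 counts and replicate 1 gave 206. This gave 61.9 CPM (55.9 to 68.5) in replicate 2 and 45.6 CPM (39.8 to 52.3) in replicate 1, with a mean of 53.7 ± 11.5 CPM (SD, n = 2). Its level lay below the median of the 420 genes that reached 10 counts in each library, 85.3 CPM.

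Mir675, which limits placental growth in mice, had 0 of 5979247 counts in replicate 2 and 0 of 4517648 in replicate 1. A count of 0 allows up to 3 counts, or 0.502 CPM in replicate 2 and 0.664 CPM in replicate 1. The measured level of Mir483, of the neighbouring Igf2 locus, was 123 times this limit in replicate 2 and 68.7 times in replicate 1. These ratios leave out the counting error of Mir483. Levels under these limits were not detectable at this depth. Mir675 was 1 of 1428 miRNA genes with no count in either library. Intervals and limits here cover counting error alone, because reads copied from the same molecule by amplification are counted separately.

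**Figure D2:**
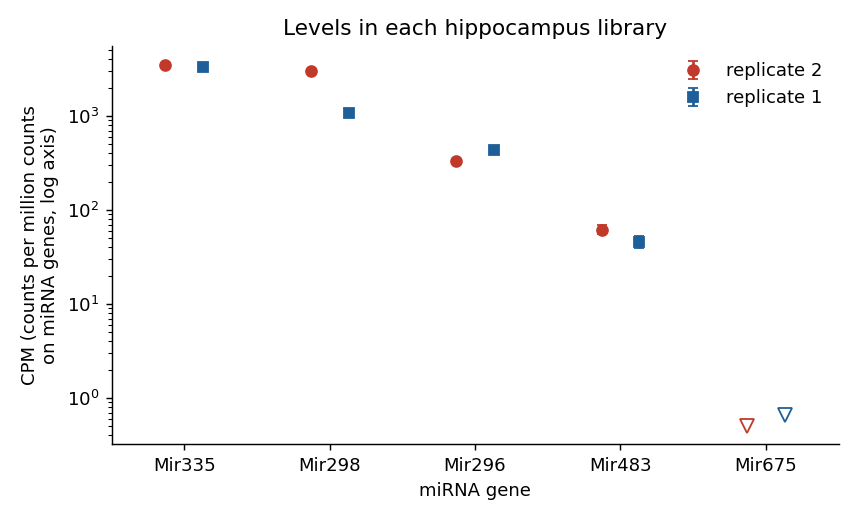
CPM (log axis) of each gene in replicate 2 (red circles) and replicate 1 (blue squares), with 95% Wilson intervals, most of them smaller than the symbols. Open triangles mark the level that a count of 0 allows for Mir675. The order of the 5 genes is the same in both libraries, and Mir298 shows the widest gap between them.

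The order was Mir335, Mir298, Mir296, Mir483 and Mir675 in both libraries, and no gene's range overlapped that of the next. The distance between the leading pair was nonetheless unstable. Mir335 exceeded Mir298 by 536.0 CPM in replicate 2 and by 2264 CPM in replicate 1, while the SD of Mir298 alone was 1355 CPM. This order is not resolved beyond the spread of Mir298. The lowest Mir298 level, 1068 CPM, was above the highest Mir296 level, 431.9 CPM, and Mir296 lay above Mir483 by at least 267.9 CPM in each library. A read covers a whole mature strand, so counts were not divided by length for this order. Per 100 bases of hairpin the mean levels kept it, at 3496, 2470, 482.1, 73.6 and 0 CPM.

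Together the 5 genes held 0.690% of all counts on miRNA genes in replicate 2 (95% Wilson interval 0.683 to 0.696) and 0.488% in replicate 1 (0.481 to 0.494), a mean of 0.589% ± 0.143 (SD, n = 2). The makeup of this sum shifted with Mir298. Mir335 made up 51.0% of it in replicate 2 and 68.3% in replicate 1, Mir298 43.3% and 21.9%, Mir296 4.78% and 8.85%, and Mir483 0.897% and 0.935%.

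With 1 group there is no condition to test, so the comparison that remains is between the libraries. Fisher's exact test (two-sided) was run on each gene's reads against all other miRNA counts, with Benjamini-Hochberg adjustment over 420 genes and a threshold of 0.05. It compares these libraries, not conditions. At this depth the test passes small differences, and 56.9% of all tested genes passed it. Mir675, with no count, could not be tested. Of the other 4 genes, 3 passed as higher in replicate 2, where 27.1% of all tested genes did, and Mir296 passed as lower, where 29.8% did. Ratios are taken as log2(CPM + 0.5) in replicate 2 minus that in replicate 1, and their median was 0.26, beside -0.07 over all tested genes. With 4 genes this says little about them as a group.

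Mir298 differed most. It was 2.79-fold higher in replicate 2, a log2 ratio of 1.48 (95% exact binomial interval 1.44 to 1.53), with an adjusted p too small to be represented in Fisher's exact test. Of the 420 tested genes, 18 had a larger difference in either direction. Among the 93 genes at 1000 CPM or more, 4 did. The difference was far larger than counting error, whose interval spans 0.09 on the log2 scale.

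The other differences were unremarkable in size. Mir483 was 1.35-fold higher in replicate 2, a log2 ratio of 0.44 (0.19 to 0.69, adjusted p = 0.000918 by Fisher's exact test). Mir296 was lower in replicate 2, with a log2 ratio of -0.39 (-0.48 to -0.30, adjusted p = 1.2e-16 by the same exact test). Mir335 had a log2 ratio of 0.08 (0.05 to 0.11, adjusted p = 7.5e-07 by the same exact test), and 353 of the 420 genes differed more. When all reads of each library set the scale, the ratio of Mir335 was 0.0026 on the log2 scale and missed the threshold (adjusted p = 0.921 by an exact binomial test). The median size of the log2 ratio over all tested genes was 0.30, so Mir335 lay within it and Mir296 and Mir483 close above it.

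**Figure D3:**
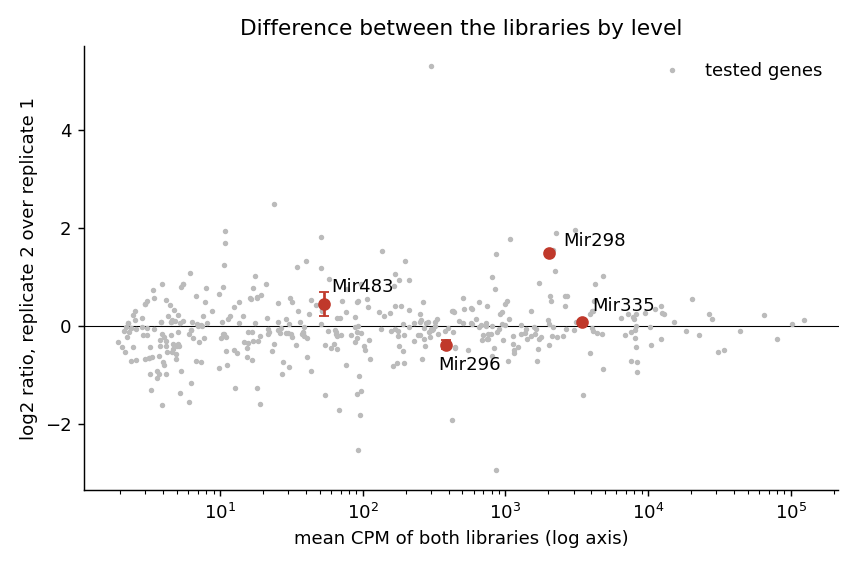
Log2 ratio of replicate 2 over replicate 1 against the mean CPM (log axis) for the 420 tested miRNA genes (grey) and for Mir298, Mir335, Mir296 and Mir483 (red, with 95% exact binomial intervals). Mir298, at 1.48, lies near the upper edge of the cloud, and the other 3 genes lie within it.

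Some marker lists also differed between the libraries. The list of regions outside the hippocampus was lower in replicate 2 by 3.06-fold in its sum. Of its 8 genes 7 were tested, and all 7 passed the threshold as lower. This was the same direction as Mir296 and the opposite direction to Mir298, Mir483 and Mir335. The choroid plexus and ependyma list of 5 genes, each counted in at least 1 library, summed to 2024 CPM in replicate 2 and 1502 CPM in replicate 1. This was a 1.35-fold difference in the same direction as Mir483, Mir298 and Mir335, and opposite to Mir296. Of its 4 tested genes, 2 passed, both as higher. The erythroid list of 3 genes differed more in its sum, by 1.49-fold, with 142.5 CPM in replicate 2, against 95.4 CPM in replicate 1, and 2 of its 3 tested genes passed as higher. The microglia and leukocyte list had 2063 CPM in replicate 2, against 1762 CPM in replicate 1, with 2 of 5 tested genes past the threshold as higher. The endothelial and mural list had 22325 CPM in replicate 2, against 19223 CPM in replicate 1, with 2 of 3 higher. None of these 4 lists had a tested gene that passed as lower. Over all tested genes, 27.1% passed as higher and 29.8% as lower. Lists of 3 to 5 tested genes say little about direction. The neuron-enriched list had 3 genes higher and 6 lower among 11 tested. The astrocyte-associated list had 17826 CPM in replicate 2, against 16118 CPM in replicate 1, with 3 of 4 tested genes higher and 1 lower. The oligodendrocyte list had 6984 CPM in replicate 2, against 6533 CPM in replicate 1, with 1 of 3 higher and 1 lower. The part of these lists in the differences of Mir298, Mir296, Mir483 and Mir335 was not tested.

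Mir298 and Mir296 lie 378 bases apart on one strand, so their ratio within a library could be compared without any scaling of the libraries. Their hairpins are printed here because the result turns on this pair. Capitals mark the mature arms.
Mir298: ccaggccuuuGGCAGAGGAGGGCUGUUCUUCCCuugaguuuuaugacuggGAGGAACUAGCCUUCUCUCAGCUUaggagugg
Mir296: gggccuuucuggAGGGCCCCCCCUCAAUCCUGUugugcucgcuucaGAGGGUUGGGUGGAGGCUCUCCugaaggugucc

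Replicate 2 held 9.05 reads of Mir298 for each read of Mir296, and replicate 1 held 2.47. The ratio was thus 3.66-fold higher in replicate 2, a log2 change of 1.87 (95% interval of the odds ratio 1.77 to 1.97). Fisher's exact test (two-sided) was applied to the 4 counts. Adjusted over 89 pairs of adjacent miRNA genes on one strand at most 10 kb apart, p in this exact test was 6.1e-278. Among such pairs 69.7% passed, so a changed ratio between neighbours was common. The size was less so. The median size of the change over the 89 pairs was 0.45 on the log2 scale, and 20 pairs changed by more than 1.

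A single pair changed more than Mir298 and Mir296. This was Mir9-1 with Mir3093, at 2.62, which rests on 101 counts of Mir9-1 in replicate 2 and 22 in replicate 1, and one of its genes shares 20 or more bases with another miRNA gene. Mir195a with Mir497 came close behind at 1.84, inside the interval of 1.77 to 1.97 given above for Mir298 and Mir296. This pair also includes a gene that shares such a stretch. Of the 47 pairs in which neither gene shares such a stretch, none changed more than Mir298 and Mir296. Both genes also differed in opposite directions, each past the threshold. The same held for 29 of the 89 pairs, Mir298 and Mir296 included.

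**Figure D4:**
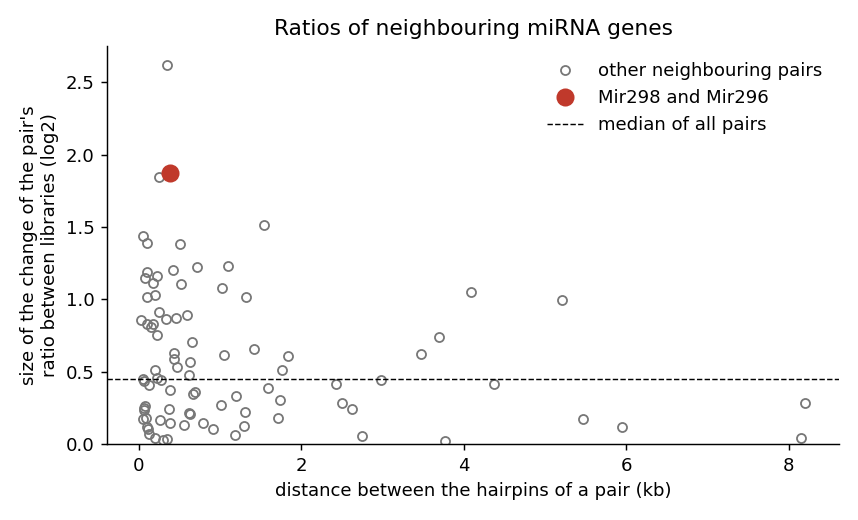
Size of the change of the ratio between neighbouring miRNA genes from one library to the other (log2) against the distance between their hairpins in kb, for 89 pairs. The pair Mir298 and Mir296 (red), at 1.87 and 0.378 kb, lies above all pairs but one, and the dashed line marks the median of 0.45.

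The genes most like each member over the 2 libraries, measured as the distance in the plane of mean log2 CPM and log2 ratio, came from other chromosomes. Nearest to Mir298 were Mir140 in Wwp2 (3188 CPM in replicate 2 and 1095 CPM in replicate 1, distance 0.09) and Mir21a in Vmp1 (3537 and 957.1 CPM, distance 0.41). Nearest to Mir335 were Mir187 (distance 0.12) and Mir378a in Ppargc1b (0.24). Mirlet7c-1 (0.22) and Mir673 of the Dlk1-Dio3 region (0.23) were nearest to Mir296, and Mir551b (0.12) and Mir1198 (0.15) to Mir483. A likeness over 2 libraries is a description of level and difference only. Mirlet7c-1 and Mir378a share 20 or more bases with other miRNA genes, so their counts are uncertain.

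The loci hold few other miRNA genes. The nearest ones to Mir335 are Mir29a and Mir183, 321.3 kb and 571.6 kb away on the other strand. Mir29a had 15477 CPM in replicate 2, against 14765 CPM in replicate 1. In the Gnas region, the predicted gene Gm27591, 19.1 kb from Mir296 on the other strand, had 0 counts in both libraries. On the antisense strand of the 5 hairpins no read was counted in either library, and the column without regard to strand held the same counts as the sense column for each of them.

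Other imprinted regions were set beside these genes. The 66 miRNA genes of the Dlk1-Dio3 window on chromosome 12, expressed from the maternal chromosome, held 9.47% of the counts in replicate 2 and 10.9% in replicate 1. Replicate 2 was higher for 13 of its 51 tested genes and lower for 29, and their median log2 ratio was -0.17. Its top genes Mir127 and Mir433 were lower in replicate 2, at log2 ratios of -0.53 and -0.26. Its largest ratio, 1.32, was below that of Mir298.

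The families of the Sfmbt2 intron cluster were taken by gene symbol and not by position, so some of their 81 genes may lie elsewhere. Of the 81 genes, 79 share long stretches with copies. These families had 3 genes higher and 3 lower among 8 tested. The most abundant were Mir467d (679.0 CPM in replicate 2, against 818.3 CPM in replicate 1) and Mir669c (270.9 CPM, against 317.4 CPM). The Mir344 family of the Prader-Willi syndrome region had 2 of 13 genes tested, with Mir344b lower in replicate 2 (55.4 CPM, against 77.3 CPM in replicate 1), while Mir344f had 8 and 21 counts and was not tested. Mir184 of the Rasgrf1 region had 38.5 CPM in replicate 2, against 39.4 CPM in replicate 1, and missed the threshold with a log2 ratio of -0.03 (Fisher's exact test, adjusted p = 0.906). Whether the 5 genes differ from these regions was not tested, since the libraries are the only replicates.

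**Figure D5:**
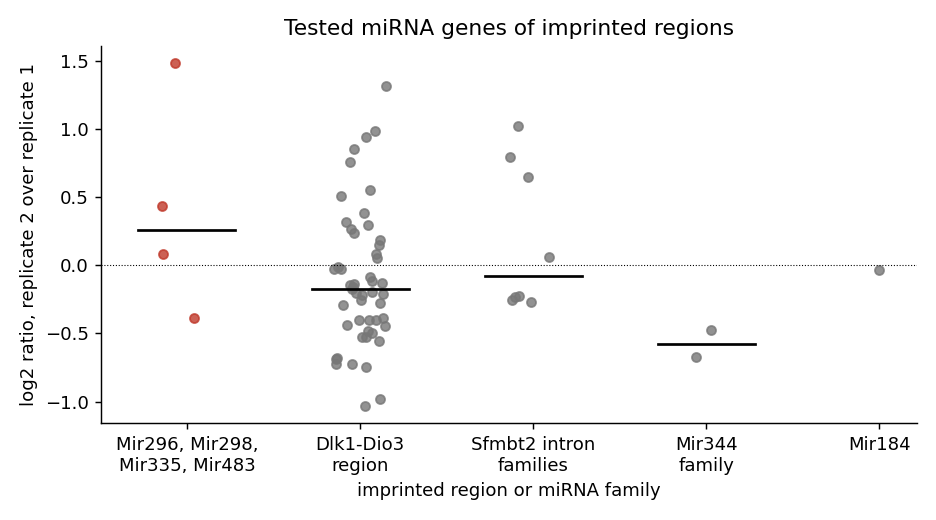
Log2 ratio of replicate 2 over replicate 1 for each tested gene of the imprinted regions, with 4 genes in red (Mir296, Mir298, Mir335 and Mir483) and the other regions in grey; bars are medians. Mir298 has the largest ratio shown, at 1.48, and the Dlk1-Dio3 genes spread from -1.03 to 1.32.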

How the data were processed

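The authors deposited 1 table of raw read counts per library, not normalized or pooled, over miRNA genes of mm10 and GENCODE M21, per the deposited notes. The sources used here do not name the aligner or the trimming, or say how reads with CAST variants were placed on mm10, a B6 genome. The tables name no columns: the strand column with the larger total was taken as sense. Library sizes leave out the totals of reads without a gene. In replicates 2 and 1, 11.2% and 11.8% of reads were unmapped and 3.69% and 3.60% lay outside miRNA genes. Counts per gene pool both hairpin arms.

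All 2202 identifiers were found in GENCODE M21. Tests used scipy 1.17.1 in Python 3.11.15 on genes that reached 10 counts in each library; edgeR 4.0.16 and DESeq2 1.42.0 (R 4.3.3) gave alternative scalings only. Folding energies came from ViennaRNA 2.7.2 and mature and hairpin sequences from RefSeq (GRCm38.p6). The Fisher test was tested on simulated data. Members, lists and tests were chosen with earlier results of these data known. Named genes were the 5 members, the 2 genes nearest to each in pattern, and the 2 most abundant genes of each imprinted region. Mir9-1, Mir3093, Mir195a, Mir497, Mir206, Mir124a-2, Mir124a-3 and the nearest neighbours Mir29a, Mir183 and Gm27591 were named after their values were seen. The same held for Mir375 and for the heart and muscle genes of the list of other organs. Alternatives tried were the unstranded column, other denominators, scalings, count minimums and pseudocounts, thinning, a neighbour distance of 100 kb and leaving out each replicate.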

Additional observations from a re-analysis of the deposited data

How the results depend on the processing

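Of 118 alternative values, 111 counted as unchanged: tested ratios kept their direction and side of the threshold, levels moved by no more than 1 SD between the libraries, and counts of genes or pairs stayed within 1.5 times. Part of this was fixed in advance, so 111 is not a measure of stability. With 2 libraries, leaving out 1 always moves a level or summed share by less than 1 SD. Count minimums do not alter a ratio, pseudocounts do not alter its p-value, and Mir675 was 0 throughout. Within the limit of 1.5 times, scaling by all reads of the library left 2 of the 5 genes higher in replicate 2 in place of 3, because Mir335 no longer passed. It also left 154 of all tested genes lower in place of 125. The column without regard to strand gave 46 of 68 neighbouring pairs past the threshold in place of 62 of 89. With all reads of the library as the denominator, the summed share of the 5 genes was 0.221%. The levels of Mir335, Mir296 and Mir483 were then 1292, 144.2 and 20.2 per 1000000 reads. That of Mir298 went from 2026 to 754.7, and counted as unchanged only because its SD was 1355 CPM. The log2 ratio of Mir335 was 0.0026 (adjusted p = 0.921 by an exact binomial test), no longer past the threshold. The denominator of all reads is larger by construction. The level of Mir335 was 3712 CPM in the column without regard to strand and 3912 CPM without the most abundant gene in the denominator. Over 11 alternatives the log2 ratio of Mir298 stayed between 1.40 and 1.53, that of Mir296 between -0.46 and -0.35 and that of Mir483 between 0.36 and 0.48, all past the threshold. The median log2 ratio of all tested genes was -0.07, and -0.14 when scaled by all reads, where the share of calls that were higher in replicate 2 was 38.6% in place of 47.7%. With either replicate left out the summed share was 0.488% to 0.690%, and no ratio could be formed. No paired analysis was possible because there is 1 group. Depth limits what can be said of Mir675.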
